A study of Mus musculus with 8 samples.

Results

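The genes described here are the expressed Zfp genes of mouse cardiac fibroblasts, that is, zinc finger protein genes named Zfp with a number. Of 396 protein coding genes in the deposited count table whose symbol is Zfp followed by a number and at most 1 letter, 170 had a mean over the 8 libraries of at least 10 CPM, the count as a share of the library total on the usual CPM scale, and these 170 are the members. The members are 170 of the 21970 protein coding genes and of the 56748 genes in the table. The level chose them, so their levels are given as a description, and the effect of the treatment is what was tested. The last genes to pass were Zfp113 (mean 10.1 CPM), Zfp606 (10.2) and Zfp867 (10.2), and the first to miss were Zfp958 (9.66), Zfp157 (9.65) and Zfp943 (9.58).

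The 4 TGF-β1 libraries came from wild-type primary fibroblasts of whole hearts, taken from C57BL/6J mice at the age of 1 day, that received transforming growth factor beta 1 at 10 ng/mL for 48 h. The 4 untreated libraries came from the same kind of culture without it, and both groups grew with fetal bovine serum. Fibroblasts were selected only by sticking to the dish, so other heart cells can remain, and replicates came from different litters, per the series design. The treatment was used as a culture model of fibrosis.

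Most Zfp genes encode proteins that bind DNA through C2H2 zinc fingers, short loops in which a pair of cysteines and a pair of histidines hold a zinc ion. Many also carry a KRAB box near the amino end, which recruits the corepressor Trim28 (KAP1), the histone methyltransferase Setdb1 and heterochromatin protein 1, and the best known of these silence retroelements and protect genomic imprints. Others lack the KRAB box and act in lineage choice, ribosome quality control, RNA decay or chromatin complexes, and the shared name says little about shared function.

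The KRAB box is shown for 3 members with known silencing targets, because its presence divides the members below. These are the coding bases of the box in GRCm39, 5′ to 3′ on the coding strand, with capitals for the codons whose amino acid is the same in all 3. They are read from chr9:22146325-22146429 (plus strand) for Zfp809, chr17:37316969-37317073 (plus strand) for Zfp57 and chr9:122685777-122685881 (minus strand) for Zfp445.
Zfp809 KRAB box: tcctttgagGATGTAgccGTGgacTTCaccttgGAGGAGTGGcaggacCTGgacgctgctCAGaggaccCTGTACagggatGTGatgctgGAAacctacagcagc
Zfp57 KRAB box: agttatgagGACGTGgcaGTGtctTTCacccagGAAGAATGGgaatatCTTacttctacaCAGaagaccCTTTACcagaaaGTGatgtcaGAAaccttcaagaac
Zfp445 KRAB box: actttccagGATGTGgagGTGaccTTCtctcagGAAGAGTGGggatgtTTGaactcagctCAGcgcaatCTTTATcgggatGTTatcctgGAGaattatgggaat
Of the 35 codons, 13 encode the same amino acid in all 3 genes. Zfp809 shared 20 residues (57.1%) with Zfp57 and 20 (57.1%) with Zfp445, and Zfp57 and Zfp445 shared 16 (45.7%).

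Finger types are shown by 1 C2H2 finger of Zfp809 (GRCm39, chr9:22150060-22150122, plus strand) and 1 CCCH finger of Zfp36 (GRCm39, chr7:28077583-28077642, minus strand). Zfp36 encodes tristetraprolin, an RNA-binding protein whose fingers use 3 cysteines and 1 histidine. Capitals mark the cysteine and histidine codons that hold the zinc.
Zfp809 C2H2 finger: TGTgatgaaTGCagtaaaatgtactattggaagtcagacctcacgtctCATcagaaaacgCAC
Zfp36 CCCH finger: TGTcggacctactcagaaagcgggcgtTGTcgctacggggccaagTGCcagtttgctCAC
A C2H2 pattern was found in the coding sequence of 166 members, with a median of 9 fingers each and a maximum of 36 in Zfp142. It was found in none of Zfp330, Zfp365, Zfp703 and Zfp36. A KRAB box was found in 65 members (38.2%), against 177 of the 226 Zfp genes under the level threshold (78.3%). Members with the box held a median of 12 fingers and members without it 7.

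The libraries held 14340740 to 17176898 counts on genes. Ribosomal RNA genes and Lars2 took 0.0348% of the counts in untreated replicate 1, against 1.19% to 2.83% in the other 7 libraries. The sums of markers and of cell division genes in this paragraph are in CPM on plain library totals. From the next paragraph on, CPM is taken on the library total scaled by TMM, a factor for each library that evens out composition. The sums were not computed on that scale, so the order of groups that lie close could depend on the scaling. Fibroblast markers summed to 21897 to 23432 CPM in TGF-β1 cultures and 19532 to 21996 CPM in untreated cultures, with 3 of 10 raised and 7 lowered. The largest part of that sum was Col1a1, which was raised (mean 8779 CPM over all libraries). The 27 cell division genes listed had moved in earlier results of these data, so their direction here is a description. All 27 fell, and their sum was 163 to 182 CPM in TGF-β1 cultures against 810 to 914 CPM in untreated cultures. The sum of 12 cardiomyocyte markers was 413 to 488 CPM in TGF-β1 cultures and 799 to 871 CPM in untreated cultures, with 10 lowered. Tnnt2 made up most of it (mean 411 CPM over all libraries). Epicardial markers summed to 905 to 935 CPM in TGF-β1 cultures and 1200.5 to 1298 CPM in untreated cultures, with 1 of 8 raised and 4 lowered. Mural markers summed to 1469.6 to 1579 CPM in TGF-β1 cultures and 1298 to 1368 CPM in untreated cultures. Of the 6 mural markers tested, 4 rose and 1 fell, and Pdgfrb made up most of the sum (mean 1061 CPM over all libraries). Macrophage and blood markers reached at most 197 CPM in TGF-β1 cultures and 234 CPM in untreated cultures, and endothelial markers at most 78.8 CPM in TGF-β1 cultures and 83.1 CPM in untreated cultures. Lyz2 made up most of the macrophage and blood sum (mean 159 CPM over all libraries). Of 8 macrophage and blood markers tested, 1 rose and 2 fell, and of 8 endothelial markers, 2 rose and 1 fell. No listed marker was at 0 in all libraries. The part of these shifts in the values of the members was not tested, and in bulk RNA fewer cells of a type and less RNA per cell cannot be told apart.

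As a group the members were expressed at low to moderate levels and took about the same share of the counts in every library. That share was 0.515%, 0.509%, 0.515% and 0.526% in the TGF-β1 cultures, against 0.554%, 0.527%, 0.529% and 0.536% in the untreated cultures, so every treated library lay below every untreated one. On the TMM scale their sum was 5205 to 5385 CPM in TGF-β1 cultures and 5171 to 5274 CPM in untreated cultures, so the order of the groups depended on the scaling. Per length, the mean FPKM of a member ran between 0.784 for Zfp738 and 25.4 for Zfp771, with a median of 4.14. Next after Zfp771 came Zfp106 (23.1 FPKM), which binds RNA, Zfp598 (18.6 FPKM), the ubiquitin ligase that marks collided ribosomes, Zfp809 (18.04 FPKM) and Zfp706 (17.3 FPKM). Among these 5, Zfp809 rose with TGF-β1 and the other 4 did not pass the test. With library totals as the scale, Zfp706 (edgeR adjusted p = 0.00802) and Zfp771 (0.0311) were called lower.

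Of the 170 members, 17 rose with TGF-β1, 17 fell and 136 did not pass the test (edgeR quasi-likelihood test, adjusted p under 0.05 over 13960 genes). Called members were therefore 20%, against 36.0% of all genes tested and 42.6% of the 8941 protein coding genes that met the same level threshold. In one direction, 17.6% of all genes tested rose and 18.5% fell, and 23.9% and 18.7% of those coding genes. The median log2 fold change of the members was 0.00 and their median change in either direction was 0.10, against 0.16 over all genes tested and 0.13 over coding genes of the same level threshold. Their median SE was 0.08, the same to 2 decimals as over all genes tested (0.08) and above the 0.06 of the coding genes at that level. In 19 members every TGF-β1 library lay above every untreated one and in 14 every one lay below, against 16.5% and 17.4% of all genes tested and 22.2% and 17.3% of the coding genes at that level.

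Changes were small. Only 4 called members changed by at least 1.5-fold, where 11.1% of all genes tested and 6.83% of the coding genes at that level did, and they were Zfp469, which rose, and Zfp395, Zfp367 and Zfp467, which fell. All 136 members that did not pass had a 95% interval inside 1.5-fold in either direction, and 78 had one inside 1.2-fold. The balance between directions depended on the scaling of the libraries. With library totals in place of TMM, 7 members rose and 36 fell, while the median over all genes tested moved to −0.07 (0.01 with TMM) and that of the members to −0.08. The raised members that lost their call on that scale were Zfp623, Zfp9, Zfp267, Zfp637, Zfp568, Zfp317, Zfp131, Zfp622, Zfp451 and Zfp507. With limma on log2 FPKM, 7 calls were lost, those of Zfp9, Zfp267, Zfp317, Zfp622, Zfp451, Zfp275 and Zfp710. Of the members, 161 were at 10 or more in each group's own mean, and 9 met it in one group only. Zfp395 and Zfp367 are among those 9 and met the threshold through the untreated libraries alone, so the choice by level favours a difference in them. The other 7, namely Zfp867, Zfp113, Zfp770, Zfp780b, Zfp626, Zfp955b and Zfp606, did not pass the test.

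**Figure D1:**
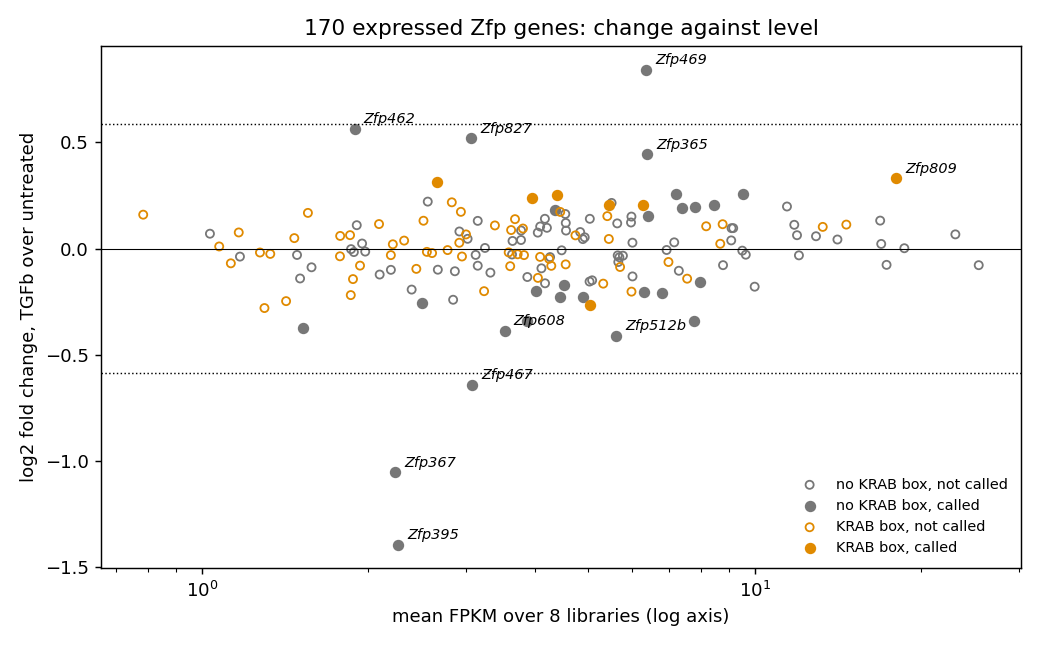
Log2 fold change (TGF-β1 over untreated, vertical axis) of the 170 members against their mean level in FPKM (horizontal axis, log scale), with called members filled and KRAB members in their own colour. Zfp469 stands highest at 0.84, Zfp395 (−1.39) and Zfp367 (−1.05) lie lowest, and most points sit between the 1.5-fold lines.

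The largest rise was in Zfp469 (ENSMUSG00000043903, chromosome 8, 122985359 to 122999389, plus strand, GRCm39), a gene with 6 C2H2 fingers whose human counterpart is mutated in brittle cornea syndrome, a disorder of connective tissue. Zfp469 had 108, 108, 110.2 and 99.4 CPM in the TGF-β1 cultures, against 65.1, 57.7, 55.3 and 58.8 CPM in the untreated cultures. The groups were far apart, the lowest TGF-β1 culture being well above the highest untreated one. The mean was 106 ± 4.74 CPM in TGF-β1 cultures and 59.2 ± 4.16 CPM in untreated cultures (SD, n = 4 each), or 0.84 ± 0.05 SE as a log2 fold change (edgeR adjusted p = 9.41e-12).

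Zfp462 (ENSMUSG00000060206, chromosome 4, 54945048 to 55083563, plus strand), a protein of 33 fingers whose human counterpart is lost in Weiss-Kruszka syndrome, came next. Its levels were 25.1, 23.2, 25.2 and 24.7 CPM in the TGF-β1 cultures, against 17.1, 15.9, 15.4 and 17.8 CPM in the untreated cultures. No treated value overlapped an untreated one (log2 fold change 0.56 ± 0.08 SE, edgeR adjusted p = 2.53e-06). Zfp827 (chromosome 8, 79755066 to 79920395, plus strand), whose human counterpart recruits the NuRD chromatin complex to telomeres, had 40.98, 43.97, 48.2 and 39.9 CPM in the TGF-β1 cultures, against 29.6, 28.3, 30.1 and 32.4 CPM in the untreated cultures. Again the groups did not overlap (log2 fold change 0.52 ± 0.07 SE, edgeR adjusted p = 1.72e-06). Zfp365 (chromosome 10, 67721933 to 67748492, minus strand), a p53 target with a role in genome stability and no C2H2 pattern, had 36.6, 40.2, 42.2 and 37.1 CPM in the TGF-β1 cultures, against 26.1, 28.8, 31 and 28.7 CPM in the untreated cultures. All 4 treated cultures were above all untreated ones, with a gap that was smaller relative to the spread (log2 fold change 0.44 ± 0.07 SE, edgeR adjusted p = 1.42e-05).

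Zfp809 (chromosome 9, 22137010 to 22154650, plus strand), which silences retroviral DNA in mouse embryonic stem cells, was the most raised KRAB gene. It had 61.01, 60.6, 56.4 and 64 CPM in the TGF-β1 cultures, against 45.6, 49.1, 49.2 and 48.4 CPM in the untreated cultures. The groups did not overlap and the untreated values lay close together (log2 fold change 0.33 ± 0.05 SE, edgeR adjusted p = 2.78e-05). Zfp369, a KRAB gene related to the neurotrophin receptor interacting factor Zfp110, had 22.9, 22.7, 22.2 and 20.04 CPM in the TGF-β1 cultures, against 19.7, 17.5, 17.6 and 15.8 CPM in the untreated cultures. The lowest treated culture was only just above the highest untreated one (log2 fold change 0.31 ± 0.08 SE, edgeR adjusted p = 0.00428). Zfp330, which encodes a nucleolar protein, had 44.9, 43.5, 45.2 and 47.4 CPM in the TGF-β1 cultures, against 39.6, 38.3, 36.4 and 37.3 CPM in the untreated cultures. These did not overlap (log2 fold change 0.26 ± 0.05 SE, edgeR adjusted p = 0.000743), but 23.2% of the 75-base stretches of its transcripts also occur in another gene, chiefly Ube2f, so part of its count is uncertain.

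Among raised members not yet described, Zfp623 had 26.1, 25.7, 26.3 and 26.6 CPM in the TGF-β1 cultures, against 19.4, 24.5, 21.7 and 21.9 CPM in the untreated cultures. Untreated replicate 2 came close to the treated cultures without reaching them (log2 fold change 0.26 ± 0.07 SE, edgeR adjusted p = 0.00865). Zfp267 had 33.4, 26.9, 29.98 and 27.9 CPM in the TGF-β1 cultures, against 26.7, 26.5, 24.3 and 22.7 CPM in the untreated cultures, and Zfp637 had 23.6, 22.3, 24.2 and 24.3 CPM in the TGF-β1 cultures, against 21.7, 20.03, 18.5 and 21.5 CPM in the untreated cultures. In both the highest untreated culture lay just under the lowest treated one. Their log2 fold changes were 0.24 (edgeR adjusted p = 0.0198) and 0.21 (edgeR adjusted p = 0.0329). Neither call held in every repeat with a library left out. Zfp267 lost its call without TGF-β1 replicate 1 (edgeR adjusted p = 0.0898), untreated replicate 3 (0.0518) or untreated replicate 4 (0.0799). Zfp637 lost it without TGF-β1 replicate 1 (edgeR adjusted p = 0.0536), 3 (0.0751) or 4 (0.0757) and without untreated replicate 2 (0.0725) or 3 (0.117).

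The other 7 raised members changed by 0.15 to 0.25 on the log2 scale. They were the KRAB genes Zfp9 (0.25, edgeR adjusted p = 0.0208), Zfp568 (0.20, edgeR adjusted p = 0.0115) and Zfp317 (0.20, edgeR adjusted p = 0.0333), together with 4 genes without the box. Of these 4, Zfp131 carries a BTB domain (0.20, edgeR adjusted p = 0.0109), Zfp622 takes part in maturation of the large ribosomal subunit (0.19, edgeR adjusted p = 0.0204), and Zfp451 is a SUMO ligase in human cells (0.18, edgeR adjusted p = 0.00642). The last was Zfp507 (0.16, edgeR adjusted p = 0.0211). Zfp451 kept its call with any 1 library left out. Zfp131 lost its call without untreated replicate 1 (edgeR adjusted p = 0.0565) and Zfp568 without untreated replicate 2 (0.0566). Zfp622 lost its call without TGF-β1 replicate 2 (edgeR adjusted p = 0.0803) or untreated replicate 3 (0.0917). Zfp507 lost it without TGF-β1 replicate 3 (edgeR adjusted p = 0.0833) or untreated replicate 1 (0.0537), 2 (0.0528) or 3 (0.0561). Zfp9 and Zfp317 each lost theirs without TGF-β1 replicate 1 (edgeR adjusted p = 0.0563 and 0.0739), TGF-β1 replicate 4 (0.0707 and 0.141), untreated replicate 1 (0.0862 and 0.0926) or untreated replicate 2 (0.0624 and 0.0876).

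**Figure D2:**
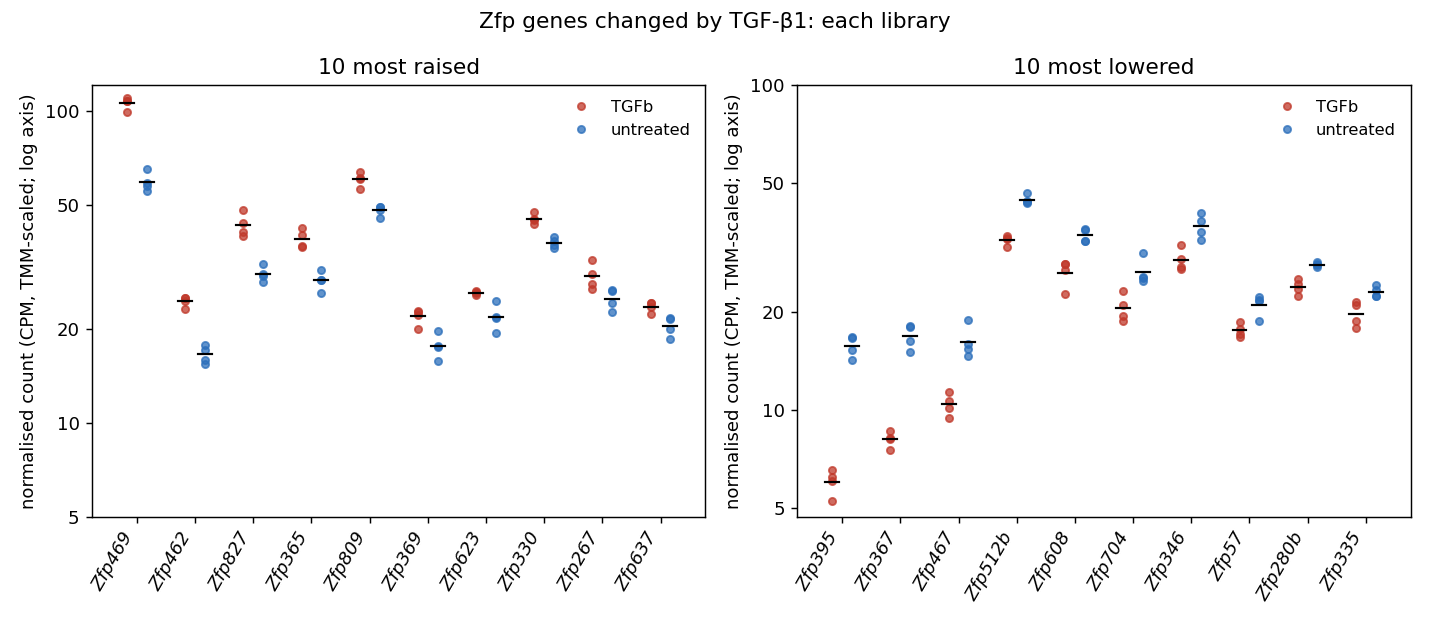
CPM in each library (points, log axis) of the 10 most raised (left) and 10 most lowered members (right) whose groups did not overlap, TGF-β1 cultures left of untreated cultures, with bars at the group means. Zfp469 has the widest gap among the raised genes, with treated cultures at 99.4 to 110.2 CPM and untreated cultures at 55.3 to 65.1 CPM.

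Zfp395 and Zfp367 had the most negative fold changes of the members. Both met the threshold of 10 only through the untreated libraries, with 5.84 against 16.2 and 7.92 against 17.4 CPM on plain library totals (mean in TGF-β1 against untreated cultures), so the choice by level favours a fall in them and their values are a description. Zfp395 (ENSMUSG00000034522, chromosome 14, 65595838 to 65636379, plus strand), whose human counterpart was described as binding the promoter of the Huntington disease gene, had 6.56, 6.22, 6.05 and 5.25 CPM in the TGF-β1 cultures, against 16.7, 16.8, 14.3 and 15.3 CPM in the untreated cultures. Every treated culture was far below the lowest untreated one. The mean was 6.02 ± 0.556 CPM in TGF-β1 cultures and 15.8 ± 1.21 CPM in untreated cultures (SD, n = 4 each), or −1.39 ± 0.11 SE as a log2 fold change (edgeR adjusted p = 6.01e-10). Zfp367 (ENSMUSG00000044934, chromosome 13, 64280832 to 64301016, minus strand), which has 2 C2H2 fingers, had 7.55, 8.23, 8.66 and 8.17 CPM in the TGF-β1 cultures, against 18.2, 16.3, 15.1 and 18.01 CPM in the untreated cultures. The groups were again far apart (log2 fold change −1.05 ± 0.10 SE, edgeR adjusted p = 1.22e-08). The 27 cell division genes, listed with earlier results of these data known, fell in the same libraries by a median of −2.61 on the log2 scale. Their part in the falls of Zfp395 and Zfp367 was not tested.

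Zfp467 (chromosome 6, 48404631 to 48422759, minus strand), which favours fat over bone formation in mouse marrow stromal cells, had 10.2, 11.4, 10.7 and 9.48 CPM in the TGF-β1 cultures, against 15.4, 18.97, 14.7 and 15.9 CPM in the untreated cultures. The groups did not overlap (log2 fold change −0.64 ± 0.10 SE, edgeR adjusted p = 2.53e-05). Zfp512b (chromosome 2, 181223896 to 181234596, minus strand), whose human counterpart was reported to raise TGF-β signalling, had 33.5, 33.9, 34.3 and 31.7 CPM in the TGF-β1 cultures, against 46.4, 43.4, 43.6 and 43.8 CPM in the untreated cultures. All treated values lay in a narrow range below all untreated ones (log2 fold change −0.41 ± 0.06 SE, edgeR adjusted p = 3.34e-06). Zfp608, a relative of the transcriptional cofactor Zfp609, had 28.2, 26.9, 28.1 and 22.8 CPM in the TGF-β1 cultures, against 35.9, 36.01, 33.2 and 33.1 CPM in the untreated cultures. It did not overlap either, and TGF-β1 replicate 4 was its lowest library (log2 fold change −0.39 ± 0.07 SE, edgeR adjusted p = 0.000165). Zfp704, a relative of Zfp395, had 23.3, 19.4, 21.04 and 18.8 CPM in the TGF-β1 cultures, against 30.4, 25.5, 25.7 and 24.9 CPM in the untreated cultures. Untreated replicate 1 was its highest library, and the rest of the untreated cultures lay just above the treated ones (log2 fold change −0.37 ± 0.08 SE, edgeR adjusted p = 0.00113).

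Zfp346, which binds double-stranded RNA, had 27.2, 32.3, 27.5 and 29.2 CPM in the TGF-β1 cultures, against 38.2, 33.3, 40.3 and 35.3 CPM in the untreated cultures. TGF-β1 replicate 2 came within about 1 CPM of the lowest untreated culture (log2 fold change −0.34 ± 0.07 SE, edgeR adjusted p = 0.000656). Zfp57, the KRAB protein that maintains imprints in embryos, had 18.7, 16.8, 17.1 and 17.8 CPM in the TGF-β1 cultures, against 18.8, 21.8, 21.6 and 22.2 CPM in the untreated cultures. The highest treated and the lowest untreated culture were nearly equal (log2 fold change −0.26 ± 0.08 SE, edgeR adjusted p = 0.0114). Zfp280b had 25.4, 22.5, 24.4 and 23.5 CPM in the TGF-β1 cultures, against 27.5, 28.2, 28.6 and 27.9 CPM in the untreated cultures. The groups did not overlap (log2 fold change −0.23 ± 0.07 SE, edgeR adjusted p = 0.00874). Zfp335, a subunit of histone H3K4 methyltransferase complexes, had 21.5, 21.1, 18.8 and 17.8 CPM in the TGF-β1 cultures, against 22.4, 23.3, 24.3 and 22.4 CPM in the untreated cultures. The highest treated culture was just under the lowest untreated one (log2 fold change −0.23 ± 0.08 SE, edgeR adjusted p = 0.0265), and 42.4% of its exonic bases lie under exons of the opposite strand. Zfp335 lost its call without TGF-β1 replicate 3 (edgeR adjusted p = 0.0777) or 4 (0.101) and without untreated replicate 2 (0.0555) or 3 (0.0712). Whether counting used strand is not given in the sources here, so reads of the overlapping genes may be mixed.

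The other 7 lowered members changed by −0.34 to −0.15. They included Zfp592, part of a chromatin complex with ZMYND8 (−0.21, edgeR adjusted p = 0.00228), Zfp219, a partner of the cartilage factor Sox9 (−0.20, edgeR adjusted p = 0.0254), and Zfp516, an activator of brown fat genes (−0.17, edgeR adjusted p = 0.0204). The rest were Zfp628 (−0.34, edgeR adjusted p = 0.0156), Zfp710 (−0.26, edgeR adjusted p = 0.0274), Zfp292 (−0.20, edgeR adjusted p = 0.00848) and Zfp275 (−0.15, edgeR adjusted p = 0.0354). In Zfp710, 27.8% of exonic bases lie under opposite-strand exons. Zfp592 kept its call with any 1 library left out. Zfp628 lost its call without untreated replicate 1 (edgeR adjusted p = 0.0503) and Zfp292 without untreated replicate 4 (0.0527). Zfp516 lost its call without TGF-β1 replicate 1 (edgeR adjusted p = 0.0776) or untreated replicate 2 (0.0563). Zfp219 lost it without TGF-β1 replicate 2 (edgeR adjusted p = 0.0704) or 3 (0.0706) and without untreated replicate 1 (0.0626) or 2 (0.0914). Zfp710 lost it without TGF-β1 replicate 2 (edgeR adjusted p = 0.0866) or 3 (0.0854) and without untreated replicate 1 (0.0668), 2 (0.0749) or 3 (0.0525). Zfp275 lost it without any of 6 libraries, all but TGF-β1 replicate 1 and untreated replicate 2, with edgeR adjusted p-values between 0.0512 and 0.106.

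By known role, most listed genes of RNA and ribosomes did not pass the test. Of 10 members, Zfp622 rose, Zfp346 fell and 8 did not pass the test. The called share equals that over all members, so it is not particular to this role. It lies below the 36.0% of all genes tested. Zfp598 had 74.1, 73.7, 75.9 and 71.9 CPM in the TGF-β1 cultures, against 70.7, 73.6, 76.4 and 74.3 CPM in the untreated cultures. The groups overlapped fully, and the 95% interval of its log2 fold change was −0.09 to 0.09. Zfp36 had a log2 fold change of −0.18 (edgeR adjusted p = 0.136), and it was called without TGF-β1 replicate 3 (edgeR adjusted p = 0.047) or untreated replicate 2 (0.0318). Zfp106 (0.07, edgeR adjusted p = 0.163), Zfp207 (0.02), which loads a checkpoint protein onto the mitotic spindle's attachment sites, and Zfp638 (0.05), which silences unintegrated retroviral DNA, did not pass. Neither did Zfp385a (0.06), Zfp326 (−0.03), which links transcription to splicing in human cells, or Zfp830 (0.20, edgeR adjusted p = 0.0776). Zfp830 was called without untreated replicate 4 (edgeR adjusted p = 0.0271).

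Among the 13 members listed for lineage choice and signalling, Zfp462 rose, Zfp467, Zfp335, Zfp219 and Zfp516 fell, and 8 did not pass the test. That is 38.5% called, near the 36.0% of all genes tested. Zfp521, which acts against commitment to fat cells, had 35.9, 31.8, 33.3 and 36.1 CPM in the TGF-β1 cultures, against 33.9, 28.1, 32.3 and 28.4 CPM in the untreated cultures. The groups overlapped (log2 fold change 0.16 ± 0.07 SE, edgeR adjusted p = 0.0784), and it was called without TGF-β1 replicate 2 (edgeR adjusted p = 0.0463) or untreated replicate 1 (0.029). Zfp260, a cofactor of GATA4 in the heart, had 72.2, 66.2, 72.97 and 77 CPM in the TGF-β1 cultures, against 64.3, 65, 65.4 and 72.05 CPM in the untreated cultures. Untreated replicate 4 reached the level of the treated cultures (log2 fold change 0.11 ± 0.05 SE, edgeR adjusted p = 0.105), and Zfp260 was called without that library (edgeR adjusted p = 0.0392) or without TGF-β1 replicate 2 (0.0281). Zfp217, whose human counterpart is amplified in breast cancers (−0.24, edgeR adjusted p = 0.104), was called without TGF-β1 replicate 1 (edgeR adjusted p = 0.00738) or untreated replicate 4 (0.0306). Zfp384, which binds matrix metalloproteinase promoters, had a log2 fold change of −0.13 (edgeR adjusted p = 0.11) and was called without TGF-β1 replicate 1 (edgeR adjusted p = 0.0238). Zfp148, which binds GC-rich promoter elements, had 0.10 (edgeR adjusted p = 0.0978) and was called without untreated replicate 4 (edgeR adjusted p = 0.0278). Zfp703 (0.12), Zfp91 (−0.01), a ubiquitin ligase, and Zfp281 (−0.03), a regulator of pluripotent cells and a relative of Zfp148, did not pass. Of the 75-base stretches of Zfp91, 35.5% also occur in another gene.

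The 4 members listed for imprints and retroelements went different ways. Zfp809 and Zfp568 rose, Zfp57 fell and Zfp445 did not pass the test, beside 36.0% called of all genes tested. Zfp568, which represses a placental transcript of Igf2, had 44.2, 43.7, 46.1 and 40.6 CPM in the TGF-β1 cultures, against 39.5, 34.1, 38.7 and 38.9 CPM in the untreated cultures. The groups did not overlap, untreated replicate 2 was its lowest library, and without it the call was lost (edgeR adjusted p = 0.0566). Zfp445, which guards imprints alongside Zfp57, had 110.03, 114, 117 and 117 CPM in the TGF-β1 cultures, against 115, 105, 96.8 and 108 CPM in the untreated cultures. The groups overlapped (log2 fold change 0.11 ± 0.05 SE, edgeR adjusted p = 0.0662), and Zfp445 was called without TGF-β1 replicate 1 (edgeR adjusted p = 0.0487) or untreated replicate 1 (0.0184). Per length, Zfp809 (18.04 FPKM) and Zfp445 (14.6 FPKM) were well above Zfp57 (5.03 FPKM) in mean level.

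**Figure D3:**
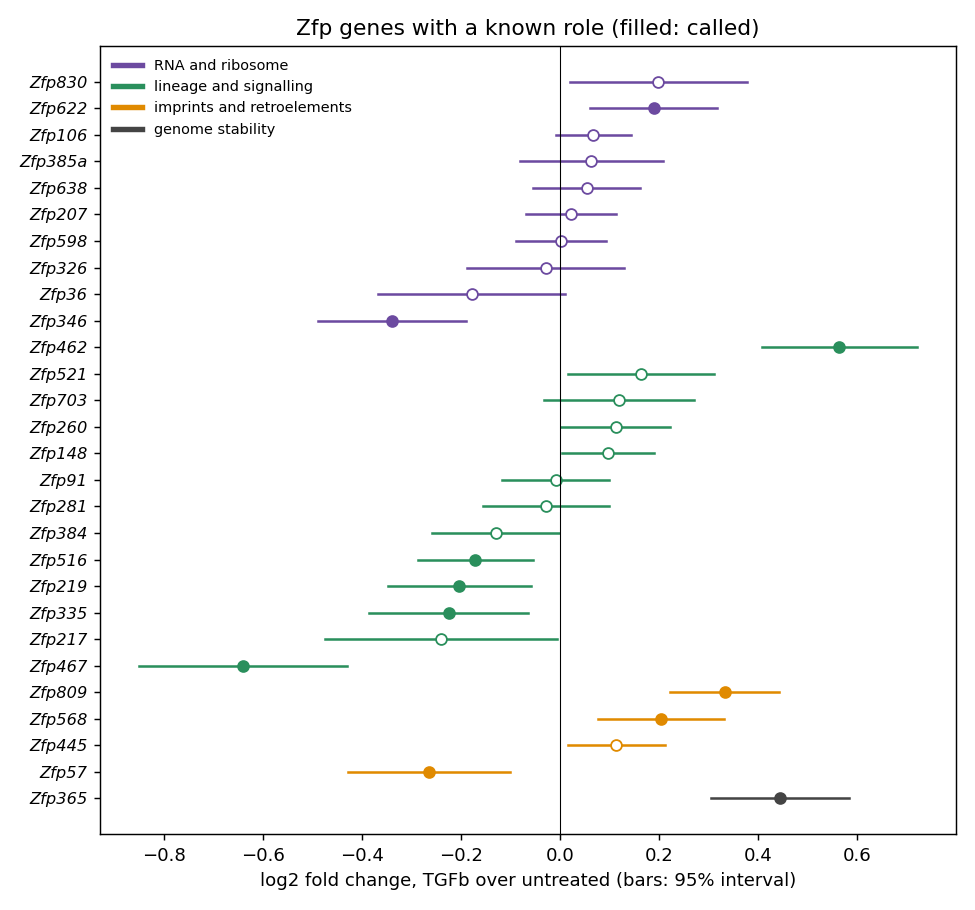
Log2 fold change (TGF-β1 over untreated) with its 95% interval for members with a listed role, coloured by role, with called genes filled. Zfp462 lies furthest to the right at 0.56 and Zfp467 furthest to the left at −0.64, and most intervals of the RNA and ribosome genes reach 0.

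Members with a KRAB box changed little, and the balance of their calls between directions depended on the scaling. Of 65, 6 rose (Zfp809, Zfp369, Zfp267, Zfp9, Zfp568 and Zfp317), Zfp57 fell and 58 did not pass the test. That is 10.8% called, against 36.0% of all genes tested and 42.6% of the coding genes at the members' level. The log2 fold changes of these 65 ran between −0.28 and 0.33. Of 105 without the box, 11 rose, 16 fell and 78 did not pass. That is 25.7% called, also below both of those shares, over a range of −1.39 to 0.84. The falls include Zfp395, which is the low end of that range, and Zfp367. Both met the level threshold through the untreated libraries alone, so the choice by level favours a fall in them. The median log2 fold change was 0.02 with the box and −0.01 without it. The median SE was 0.09 with the box, at a median level of 3.39 FPKM, and 0.07 without it, at 4.56 FPKM. With library totals in place of TMM, 2 KRAB members rose and 8 fell, while 5 members without the box rose and 28 fell. Without untreated replicate 2, 3 KRAB members rose, and 2 fell without TGF-β1 replicate 3, untreated replicate 1 or untreated replicate 4. The difference between the 2 kinds of gene was not tested.

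**Figure D4:**
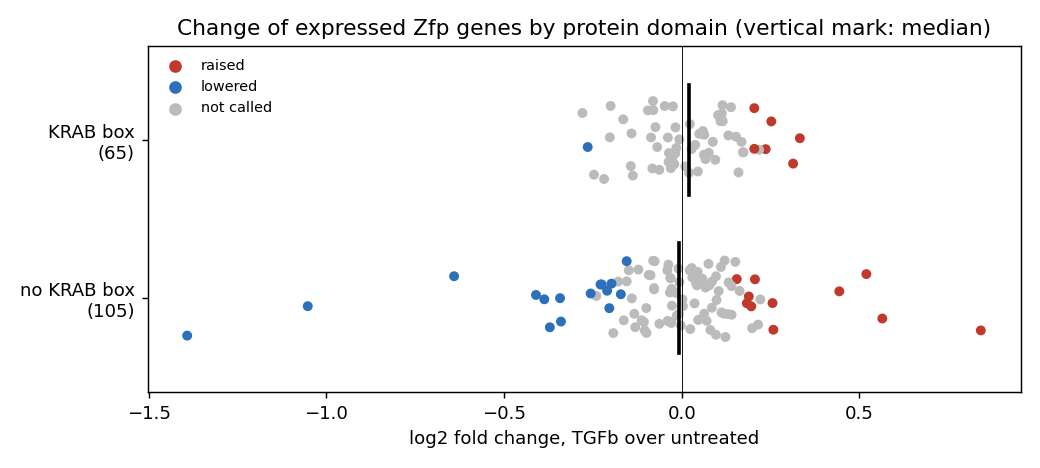
Log2 fold change (TGF-β1 over untreated) of each member, split by whether its coding sequence holds a KRAB box, coloured by whether it rose, fell or was not called, with lines at the medians. The 65 members with the box lie between −0.28 and 0.33, and the 105 without it reach −1.39 and 0.84. The value of −1.39 is that of Zfp395, which met the level threshold through the untreated libraries alone.

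By finger number the counts were close in both directions. Of 80 members with 10 fingers or more, 7 rose and 7 fell, and of 86 with 1 to 9 fingers, 8 rose and 10 fell. That is 17.5% and 20.9% called, both near the share over all members and below the 36.0% of all genes tested. The 4 with no C2H2 pattern included the raised Zfp365 and Zfp330. SCAN, a dimerization domain, was sought with a short sequence pattern, which can miss true domains. None of the 7 members that matched it was called, beside 36.0% of all genes tested. Other members may carry the domain, so this holds for the matches only.

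Members were grouped along the chromosomes. Chromosome 7 held 38 members (22.4%), against 7.47% of all genes tested, and of these 2 rose (Zfp568 and Zfp507) and 3 fell (Zfp592, Zfp710 and Zfp628). That is 13.2% called, below the share over all members and the 36.0% of all genes tested. Whether chromosome 7 members differ from the others in their calls was not tested. With gaps of at most 500 kb, 49 members lay in 11 clusters of at least 3. A called member was found in 3 clusters, and none held more than 1. So 3 of these 49 members were called, beside 36.0% of all genes tested. Whether members in clusters differ from the others in their calls was not tested. The cluster of Zfp771 on chromosome 7 between 126832233 and 127485168 also held Zfp553, Zfp768, Zfp747, Zfp629, Zfp668 and Zfp646, and its log2 fold changes ran between −0.13 and 0.09, none of them called. The cluster on chromosome 7 between 29467977 and 29869175 (GRCm39) held Zfp84, Zfp790, Zfp27, Zfp74, Zfp568, Zfp260 and Zfp146, with log2 fold changes between −0.02 and 0.20 and a median of 0.11. Zfp568 was its called gene. On chromosome 6, Zfp398, Zfp282, Zfp212, Zfp777 and Zfp746 lay beside the lowered Zfp467 between 47812595 and 48422759, and their cluster ran between −0.64 and 0.12 with a median of −0.04. On chromosome 7 between 4918216 and 5039767, Zfp628 fell, and its neighbours Zfp579 and Zfp865 did not pass. Zfp955a and Zfp955b, which are neighbours on chromosome 17, share sequence (37.1% of the 75-base stretches of Zfp955a), as do Zfp970 with Zfp1003 (46.0%) and Zfp268 with Zfp984 (47.3%), so their counts could be split between copies, and none of these members was called.

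The genes that work with KRAB proteins were looked at as a list of 24 corepressor and heterochromatin genes, of which 1 rose and 8 fell. That is 37.5% called, close to the 36.0% of all genes tested and below the 42.6% of coding genes at the members' level. Trim28, the corepressor that binds the KRAB box, had 221, 229, 224 and 222 CPM in the TGF-β1 cultures, against 250.1, 235, 241 and 247 CPM in the untreated cultures. The highest treated culture was just under the lowest untreated one (log2 fold change −0.12 ± 0.04 SE, edgeR adjusted p = 0.0114). Setdb1, the methyltransferase it recruits, did not pass (−0.01, edgeR adjusted p = 0.917). Chd3, a NuRD helicase, rose (0.86, edgeR adjusted p = 4.74e-12). The heterochromatin protein genes Cbx3 (−0.52, edgeR adjusted p = 2.50e-07) and Cbx5 (−0.19, edgeR adjusted p = 0.000624) fell, as did Atrx (−0.16), Rbbp4 (−0.17) and Rbbp7 (−0.13). In Atrx the groups overlapped. Cbx1, also a heterochromatin protein gene, did not pass (−0.15, edgeR adjusted p = 0.0545). The steepest falls were in Dnmt1 (−1.23, edgeR adjusted p = 1.63e-13), the maintenance DNA methyltransferase, and Uhrf1 (−2.70, edgeR adjusted p = 1.03e-15), which brings it to replicated DNA. The cell division genes, listed with earlier results of these data known, fell in the same libraries, and their part in these falls was not tested.

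The Zfp genes under the level threshold and the Zbtb genes serve as comparison, beside the 36.0% called of all genes tested. Of the 226 Zfp genes under the threshold, 171 were tested, 5 rose and 9 fell (8.19% called), with a median log2 fold change of −0.04 and a median SE of 0.17. Of 37 tested Zbtb genes, which pair zinc fingers with a BTB domain, 2 rose and 7 fell (24.3% called). Zbtb38 (0.41, edgeR adjusted p = 5.36e-08) and Zbtb18 (0.30, edgeR adjusted p = 0.00288) rose, and the steepest falls were in Zbtb8b (−1.06, edgeR adjusted p = 1.60e-07) and Zbtb8a (−0.75, edgeR adjusted p = 3.00e-05).

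Promoter windows of 250 bases before to 50 bases after the start (RefSeq, GRCm38.p6) were at hand for 138 of the 170 members, 11 of them raised and 13 lowered. Motifs were searched on both strands, over every entry of a gene. Windows are printed for 1 raised and 1 lowered member, chosen after their values were seen, with capitals for every motif match. The Zfp365 window is chr10:67912613-67912912 and that of Zfp367, the first of 2 entries, is chr13:64153150-64153449, both on the minus strand.
Zfp365 promoter: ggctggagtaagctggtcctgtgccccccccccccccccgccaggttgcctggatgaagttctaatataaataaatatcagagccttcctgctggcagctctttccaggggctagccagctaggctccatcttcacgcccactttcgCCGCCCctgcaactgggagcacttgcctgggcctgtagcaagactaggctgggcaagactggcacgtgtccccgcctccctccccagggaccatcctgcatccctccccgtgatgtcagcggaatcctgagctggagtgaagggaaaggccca
Zfp367 promoter: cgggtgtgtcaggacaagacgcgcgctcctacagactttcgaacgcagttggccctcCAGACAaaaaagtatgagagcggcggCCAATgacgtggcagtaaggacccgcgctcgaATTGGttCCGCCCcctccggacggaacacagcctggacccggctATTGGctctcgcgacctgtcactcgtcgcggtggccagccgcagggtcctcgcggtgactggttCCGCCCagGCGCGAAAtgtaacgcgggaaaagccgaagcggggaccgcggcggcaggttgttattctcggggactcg
The Zfp365 window held 1 match of the SP1 motif GGGCGG. The Zfp367 window held 1 match of the SMAD motif CAGACA, 1 of the E2F motif TTTNGCGC, 2 of GGGCGG and 3 of the CCAAT box, and no match overlapped another.

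Over the members, CAGACA was in 2 of 11 raised and 3 of 13 lowered promoters, against 18.8% of all matched members and 23.6% of all 27025 promoter-table genes. The SMAD palindrome GTCTAGAC was in none of the members' windows and in 0.248% of all genes. GGGCGG was in 7 of 11 raised and 6 of 13 lowered promoters, in 63.0% of all matched members and in 38.2% of all genes. CCAAT was in 4 raised and 7 lowered promoters, in 47.1% of matched members and in 41.1% of all genes. TTTNGCGC was in no raised and 1 lowered promoter, in 3.62% of matched members and in 1.57% of all genes. The AP-1 motif TGANTCA (5.80% of matched members, 8.97% of all genes) and the cell cycle motif TTTGAA (15.9% and 20.2%) were each in no raised and 1 lowered promoter. A match describes the letters in these windows only.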

How the data were processed

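Polyadenylated RNA of 8 fibroblast cultures was sequenced, 4 given TGF-β1 and 4 untreated, and groups came from the labels. Per the submitters' processing notes, the tools were HISAT2, CASAVA, Subread and featureCounts, with no versions given. The notes also name GRCm38 and mm10 where the series design names mm39, and the coordinates of all 170 members overlap the same gene in GENCODE M39 (GRCm39), the build used here. The deposited count table holds raw read counts per gene, and the second deposited table holds FPKM by the authors.

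Counts were filtered with filterByExpr of edgeR (minimum count 10, minimum total 15; 13960 genes left), scaled by TMM and put through a two-sided quasi-likelihood test in edgeR 4.0.16 (R 4.3.3), with group alone in the model and Benjamini-Hochberg adjustment over all genes. The common biological coefficient of variation was 6.27%. Calls are those with an adjusted p under 0.05. SE is the size of the log2 fold change over the square root of F. FPKM served for levels between genes. Counts were also simulated for this comparison (13960 genes, about 50 changed genes per size). Of genes changed by 1.2-fold, 4% were recovered, with 68% at 1.5-fold, 87.5% at 2-fold and 100% at 4-fold, and 8 unchanged genes were called. Only 200 genes were changed and all genes had the same dispersion, so these shares hold for that setting only. Replicates differed by 2.07 to 3.17 times sampling noise (median chi-square per gene), so no library was counted as a duplicate.

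KRAB boxes were found with a profile search (pyhmmer 0.12.3, E at most 0.001) and fingers and SCAN domains with patterns in translated GENCODE M39 coding sequences, used in place of RefSeq proteins. Shared 75-base stretches and opposite-strand exons came from the same annotation. The members and lists were chosen with earlier results of these data known. Named with values were the 10 most raised and 10 most lowered called members without overlap, listed role genes, the 5 most abundant, those at the level threshold and those of described clusters; other called members were named after their values were seen. Alternatives were scaling by library totals, RLE or upper quartiles, 2 other count filters, a replicate block, each library left out, DESeq2 1.42.0, limma 3.58.1 on log2 FPKM (pseudocount 1 or 0.1) and, added after seeing the data, a repeat without ribosomal RNA genes and Lars2.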

Additional observations from a re-analysis of the deposited data

Results flagged for a closer look

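In each of the 170 members, both groups of 4 libraries were searched for a single library far from the other 3, and it was found in 28 of 340 groups (8.24%), where chance gives about 1 in 20. Of these, 13 were TGF-β1 groups and 15 untreated groups. Values are given by library, each beside the range of the other 3 libraries of its group. In TGF-β1 replicate 1, Zfp27 was 14.11 CPM, above 12.1 to 12.35 CPM, and Zfp869 was 22.22 CPM, below 24.28 to 24.4 CPM. In TGF-β1 replicate 2, Zfp180 was 24.13 CPM, below 26.36 to 26.59 CPM, and Zfp282 was 33.81 CPM, above 27.62 to 28.5 CPM. In that library, too, Zfp414 was 17.08 CPM, above 13.82 to 14.36 CPM, and Zfp719 was 20.67 CPM, below 23.01 to 23.28 CPM. There, Zfp787 was 15.83 CPM, above 15.09 to 15.13 CPM. In TGF-β1 replicate 3, Zfp236 was 29.98 CPM, below 33.5 to 33.67 CPM, and Zfp74 was 13.51 CPM, below 16.58 to 16.79 CPM. In that library, too, Zfp746 was 38.28 CPM, above 32.27 to 33.22 CPM, and Zfp768 was 19.99 CPM, above 17.28 to 17.56 CPM. In TGF-β1 replicate 4, Zfp639 was 30.24 CPM, above 24.9 to 25.44 CPM, and Zfp868 was 12.23 CPM, above 9.5 to 9.817 CPM. In untreated replicate 1, Zfp386 was 17 CPM, above 14.79 to 15.12 CPM, and Zfp512b was 46.42 CPM, above 43.44 to 43.84 CPM. In that library, too, Zfp652 was 72.25 CPM, above 64.27 to 65.31 CPM, and Zfp704 was 30.41 CPM, above 24.93 to 25.74 CPM. There, Zfp90 was 9.23 CPM, below 13.06 to 13.53 CPM. In untreated replicate 2, Zfp142 was 29.25 CPM, above 24.93 to 25.56 CPM, and Zfp24 was 39.13 CPM, below 45.35 to 46.48 CPM. In that library, too, Zfp282 was 31.24 CPM, above 29.58 to 29.85 CPM, and Zfp568 was 34.09 CPM, below 38.75 to 39.51 CPM. There, Zfp639 was 23.28 CPM, below 24.51 to 24.77 CPM. In untreated replicate 3, Zfp266 was 59.77 CPM, above 54.58 to 55.47 CPM, and Zfp746 was 38.07 CPM, above 34.2 to 34.49 CPM. In untreated replicate 4, Zfp260 was 72.05 CPM, above 64.34 to 65.37 CPM, and Zfp268 was 13 CPM, below 15.67 to 16.05 CPM. In that library, too, Zfp866 was 16.52 CPM, below 20.56 to 21.16 CPM. Among the called members found here, Zfp512b and Zfp704 were still called without untreated replicate 1 (edgeR adjusted p = 1.45e-05 and 0.00502). Zfp568 lost its call without untreated replicate 2 (edgeR adjusted p = 0.0566).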

How the results depend on the processing

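Of the 34 called members, 17 were called in the same direction under all 18 alternatives, 7 raised (Zfp469, Zfp462, Zfp827, Zfp365, Zfp809, Zfp369 and Zfp330) and 10 lowered (Zfp395, Zfp367, Zfp467, Zfp512b, Zfp608, Zfp704, Zfp346, Zfp57, Zfp280b and Zfp592). Zfp395 and Zfp367 met the level threshold through the untreated libraries alone. The choice by level favours a fall in them under any alternative, so their calls are a description. No called member reversed. Library totals gave 7 raised and 36 lowered members, 2 and 8 with a KRAB box, and 5 and 28 without it. The TMM factors were 0.958 to 0.979 in TGF-β1 libraries and 1.02 to 1.05 in untreated ones. Leaving out 1 library gave 12 to 20 raised and 14 to 18 lowered members, 3 to 6 raised and 1 to 2 lowered KRAB members, and 9 to 14 raised and 12 to 17 lowered members without the box. RLE and the repeat without ribosomal RNA genes and Lars2 gave 17 raised and 17 lowered, DESeq2 16 and 17 (Zfp637 was lost), no count filter 16 and 17 (Zfp637 and Zfp516 were lost), and limma on log2 FPKM 13 and 15. With the replicate number as a block, 17 rose and 19 fell, the added calls being Zfp36 and Zfp217. Deviations of same-numbered libraries had correlations of −0.034 to 0.039, so the numbers were not read as pairs. Changes of 1.2-fold were mostly missed in the simulated counts, where only 200 of 13960 genes were changed and all genes had the same dispersion. In the data 36.0% of all genes tested were called, so the simulated recovery does not give the share missed here. Some called members changed by less than 1.2-fold, such as Zfp507 (1.11-fold).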
